A study of Rattus norvegicus with 66 samples.

Results

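The expression of 10 genes of the Nrf2 antioxidant response was examined in the dorsal hippocampus of Long Evans rat pups on postnatal day (PND) 6. The genes were chosen by name: Nfe2l2, Keap1, Hmox1, Nqo1, Gclc, Gclm, Txnrd1, Srxn1, Sod1 and Sod2. Each matched exactly 1 entry among the 37777 genes of the count tables. RNA of 64 pups, 41 males and 23 females, had been sequenced in 66 libraries, since 1 male and 1 female feeding control were each sequenced in 2 libraries. The pups were exposed through their dams, before and after birth. Treated chow was given from 2 weeks before mating into lactation, and injections during pregnancy and lactation. Aroclor 1254, a commercial mixture of polychlorinated biphenyls, and bisphenol A were given in the chow at 0.5 mg/kg (Aro0.5 with 4 males, BPA0.5 with 4 males) and at 5 mg/kg (Aro5 with 6 males and 5 females, BPA5 with 7 males and 4 females). Chlorpyrifos, an organophosphate insecticide, was injected under the skin of the dam at 1 mg/kg (CPF1, 4 males) or 3 mg/kg (CPF3, 7 males and 4 females). Feeding controls (CONF, 4 males and 5 females) and injection controls (CONSC, 5 males and 5 females) received vehicle, and they were combined within each sex as controls. The labels give the injection vehicle as saline, whereas the study's methods name dimethyl sulfoxide. Several pups came from the same litter, mostly 1 male and 1 female, but also 2 of the Aro5 males and 2 of the Aro5 females, and the tissue included a small piece of neighbouring neocortex. Because the tissue is a mixture, fewer cells of a type and less RNA per cell cannot be told apart.

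Nrf2, the protein made from Nfe2l2, is a transcription factor that cells use against oxidants and reactive chemicals. In resting cells Keap1, an adaptor of a Cul3 ubiquitin ligase, binds Nrf2 and directs it to degradation. Oxidants and electrophiles modify cysteines of Keap1, and Nrf2 then escapes, enters the nucleus, pairs with a small Maf protein and binds antioxidant response elements in front of its target genes. The response is therefore switched mainly at the level of the protein, and its usual readout in RNA is the group of target genes. In brain it is best known from astrocytes. Oxidative stress has been proposed as an effect of each of the 3 chemicals, and the counts allow the question of whether these transcripts differed between treated and control pups.

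The core of the antioxidant response element is TGACNNNGC. RefSeq promoter windows of build GRCr8, reaching from 250 bases before to 50 bases after a gene's start, were available for 9 of the 10 genes, and Hmox1 had none. This core was searched on both strands. It occurred in 12.1% of all 33469 windows, and in 4 of the 10 windows of these 9 genes (Txnrd1 has 2 windows). The stretches that hold it are shown because the element is the site through which Nrf2 reaches its targets, with the core in capitals, 5′ to 3′ on the strand that carries it.
Gclm: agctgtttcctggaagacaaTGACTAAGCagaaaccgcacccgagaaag
Txnrd1: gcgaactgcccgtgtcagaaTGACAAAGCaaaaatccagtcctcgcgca
Sod2: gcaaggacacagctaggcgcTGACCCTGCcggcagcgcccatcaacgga
Nfe2l2: gactagccatTGACGCCGCctc
The Gclm stretch lies at chr2:213031943-213031991 on the minus strand, opposite to the gene, and its core begins 172 bases before the start. The Txnrd1 stretch lies at chr7:22755954-22756002 on the plus strand, opposite to the gene, and its core begins 78 bases before 1 of its 2 starts. That of Sod2 is at chr1:50050175-50050223, also on the plus strand and opposite to the gene, and its core begins 35 bases before the start. In Nfe2l2 the core lies behind the start, from transcribed base 39, at chr3:81028950-81028971 on the minus strand, which is the strand of the gene. The windows of Keap1, Nqo1, Gclc, Srxn1 and Sod1 do not hold these letters, which says nothing of elements farther away. A match is a description of the letters and not a bound site.

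Total counts per pup ranged from 10644138 to 86206550. All 10 genes were detected in all 64 pups, with the lowest count at 73 for Hmox1 and the highest at 10529 for Sod1. For the least abundant members, Srxn1 and Hmox1, median counts of 172.5 and 173.5 per pup give a counting error of 7.61% and 7.59%. Median coefficients of variation within groups were 17.9% and 16.4% for the same genes, so that the spread between pups exceeded the counting error. Library names come in 2 forms, here called A and B: male names end in Y (A) or y (B), and names of control females have a separator between group and litter (A) or none (B). All low-dose males and 9 of the 10 libraries of control males had form A, whereas all high-dose males had form B. The only male control sequenced in both forms, CONF pup N2-2y, had 33.7 CPM (counts scaled to a common library total) of Keap1 in form A and 49.0 CPM in form B. For Gclc it had 54.2 and 44.5 CPM, for Nfe2l2 18.3 and 14.1 CPM, and for Hmox1 4.98 and 8.06 CPM. In female CONF pup N4-3x the values of forms A and B were 58.3 and 58.6 CPM for Keap1, 13.4 and 10.4 CPM for Gclm, and 8.94 and 7.65 CPM for Srxn1. The labels give its 2 libraries different dissection times, 12.09 and 11.55 h, and they were taken as 1 pup by litter and pup number. What the form stands for is not stated, and form and high dose cannot be told apart in males beyond this 1 pup. Markers of neurons, astrocytes, microglia, endothelium and oligodendrocytes were present in every group, as were those of choroid plexus, whose summed level varied from 745 to 4472 CPM between pups, and of thalamus, with 87.9 to 834 CPM.

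The levels of all 10 genes in each pup are plotted by group. Between the lowest and the highest of the 13 group means the ratio was 1.12 for Txnrd1, the thioredoxin reductase of the cytosol, and 1.66 for Srxn1, which restores overoxidised peroxiredoxins. Sod2, the manganese superoxide dismutase of mitochondria, had a ratio of 1.20. In the order of the group means, no pair of neighbouring groups was without overlap for any of the 10 genes. The lowest and the highest group did not overlap for Nfe2l2, Keap1, Nqo1, Gclc, Sod1 and Sod2, and this was so for 52.1% of all genes with a mean of at least 1 CPM. For Keap1 all 5 female group means, 54.6 to 61.6 CPM, lay above all 8 male group means, 42.1 to 49.6 CPM. For Sod1, the copper and zinc superoxide dismutase, the female means of 131 to 145 CPM also lay above the male means of 112 to 129.7 CPM. No other member had male and female group means apart. The share of all genes with such a separation is not given here. Between control males and females 40.8% of all genes tested had an unadjusted p under 0.05 (edgeR).

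**Figure D1:**
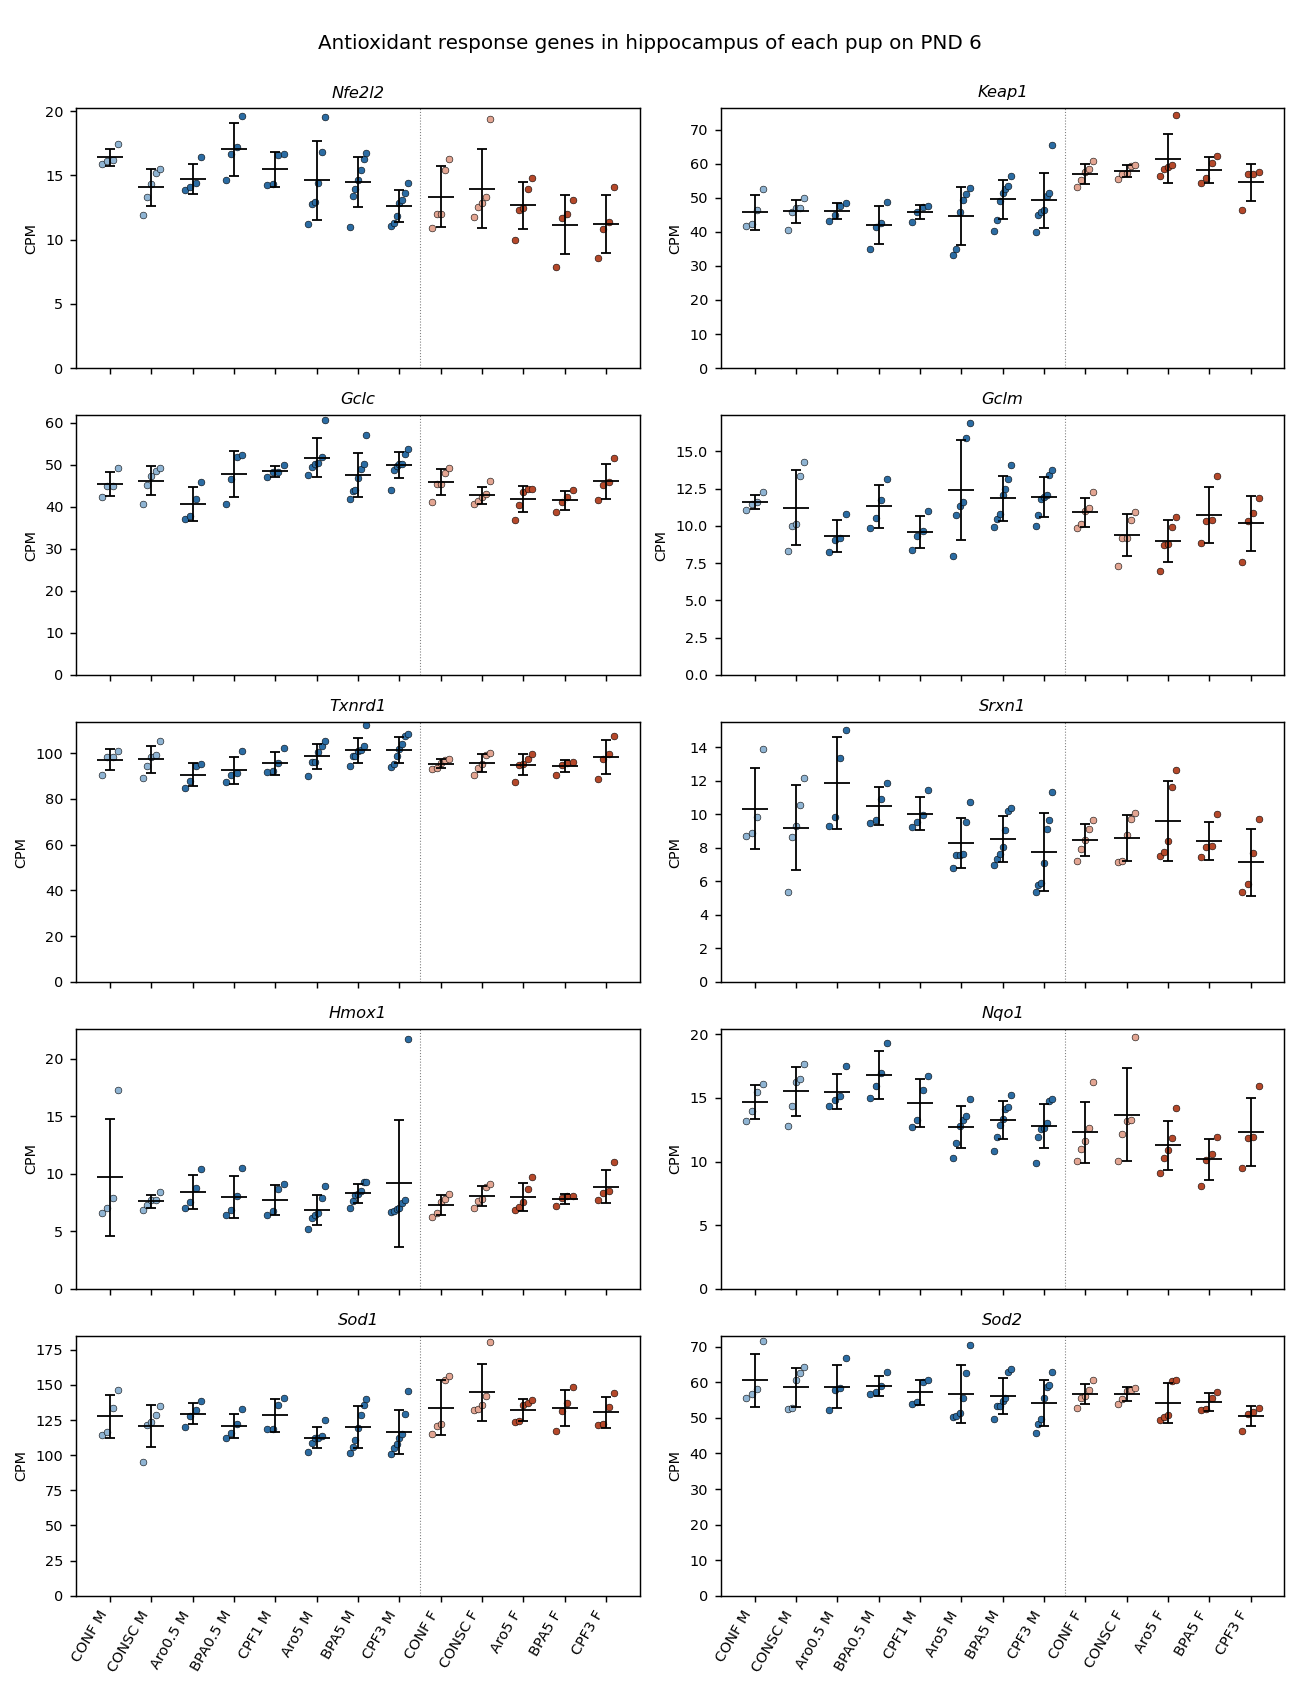
Levels in CPM (y axis, from 0) of the 10 genes in each pup (points) of the 13 groups (x axis; M, males, left of the dotted line; F, females, right of it; controls in pale colours), with mean and SD. Keap1 group means are higher in females (54.6 to 61.6 CPM) than in males (42.1 to 49.6 CPM), and 1 CONF male and 1 CPF3 male stand apart for Hmox1 with 17.3 and 21.7 CPM.

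None of the 10 genes differed from controls in any of the 9 comparisons of a treated group (edgeR, quasi-likelihood F test, adjusted p under 0.05). DESeq2 also called 0 of the 10 in each. The shares of all genes called, here and below, are those of edgeR, and none is given for DESeq2. This must be read against the whole table, where few genes passed in these fits. By its own fit the study reported far more changed genes in high-dose males, and the cause of that gap was not tested. In high-dose males 0.195% of the genes tested were called for Aro5, 0.189% for BPA5 and 0.159% for CPF3. In low-dose males 0.124% were called for Aro0.5, 0.0434% for BPA0.5 and 0% for CPF1, and in females 0% for each of Aro5, BPA5 and CPF3. Of the 90 tests of these genes against controls, 10 had an unadjusted p under 0.05. They were Gclc and Nqo1 in Aro5 males, where 11.8% of all genes had such a p, and Nfe2l2, Nqo1 and Gclc in CPF3 males (12.6%). They were also Srxn1 in Aro0.5 males (18.5%), Nfe2l2 in BPA0.5 males (8.58%), Nqo1 in BPA5 females (4.08%), and Hmox1 and Sod2 in CPF3 females (8.79%). There was none in BPA5 males (9.1% of all genes), CPF1 males (2%) and Aro5 females (3.23%). The data limit the size of possible changes. All 90 of the 95% confidence intervals lay within a 2-fold change in either direction, and 86 lay within a 1.5-fold change. For Hmox1 this depends on the fit, since 3 of its intervals passed 2-fold with the name form as covariate, 1 with only pups dissected in the study's time window (10.30 to 13.20 h) and 1 with controls of the same route only. The 4 wider ones belong to Hmox1 in Aro5 males, Srxn1 in CPF3 and Aro0.5 males, and Nqo1 in BPA5 females. In high-dose males these intervals include any shift that comes with the form of the library name.

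**Figure D2:**
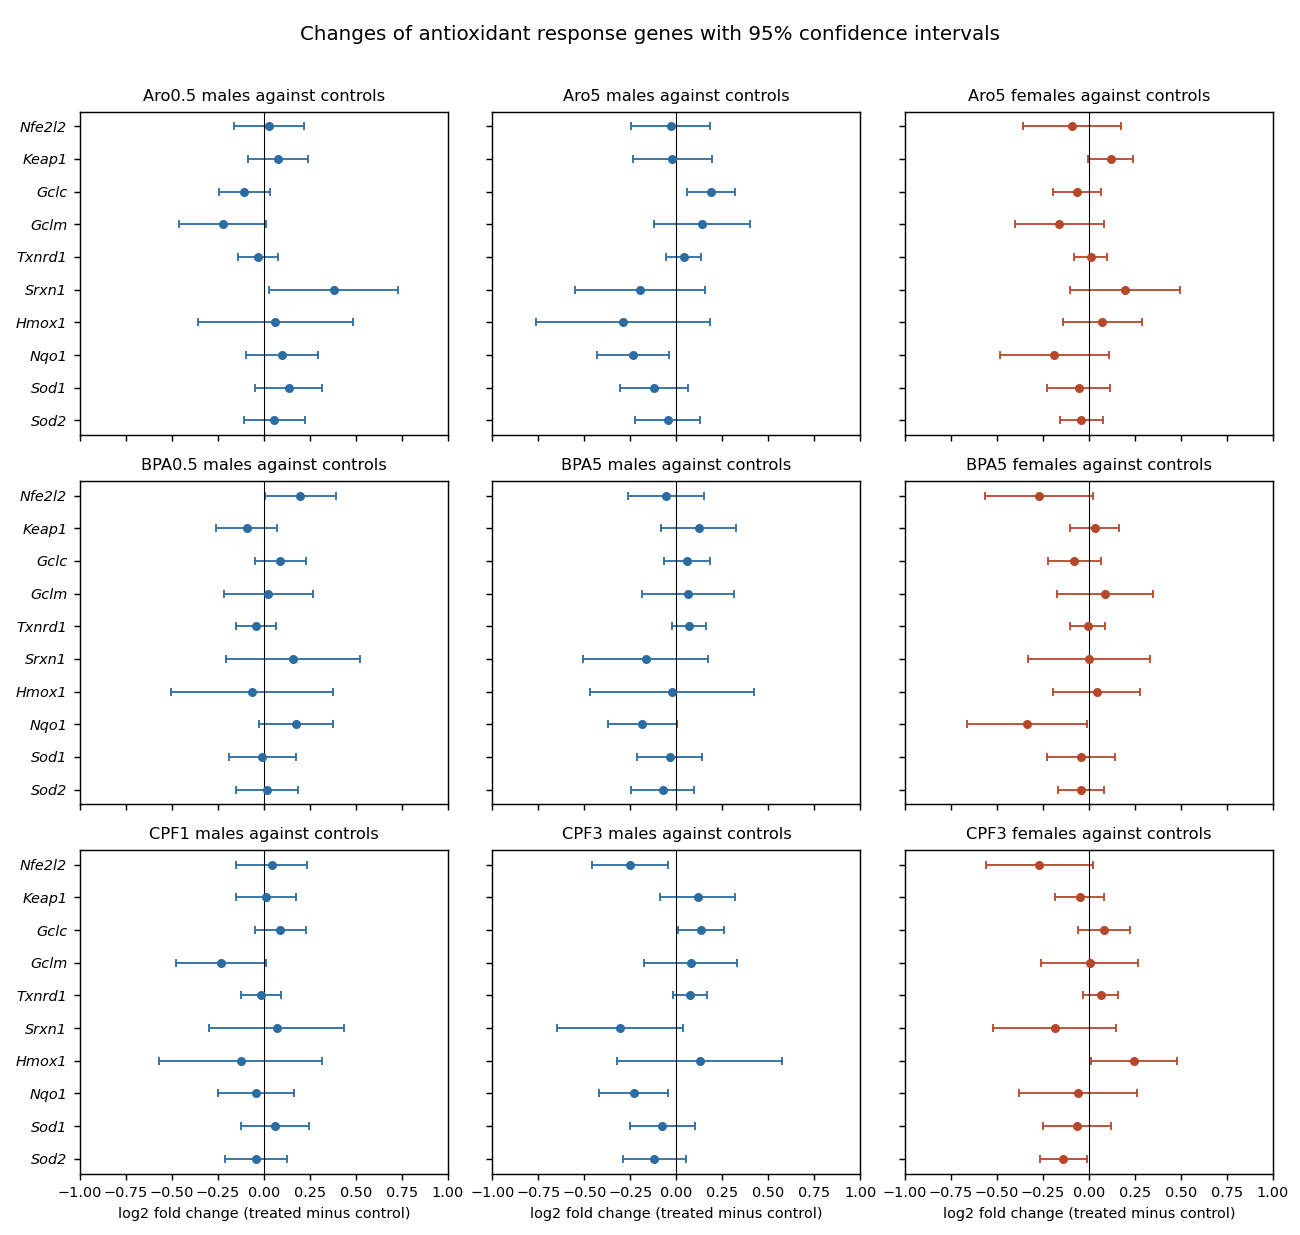
Log2 fold changes of treated pups against controls of the same sex (x axis) for the 10 genes (y axis), with 95% confidence intervals, in 1 panel per treated group (males blue, females red). All 90 intervals lie between -1 and 1, and no gene passed the adjusted threshold.

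In high-dose males the median log2 fold change of the 10 genes was -0.04 for Aro5, -0.03 for BPA5 and 0.00 for CPF3, beside medians over all genes of 0.00, 0.01 and 0.00. For the regulators, Nfe2l2 had 11.9, 15.5 and 17.4 CPM as the lowest, median and highest value of the 9 control males. CPF3 males had 11.1, 12.8 and 14.4 CPM, a log2 fold change of -0.25 ± 0.101 (SE) with an adjusted p of 0.339 (edgeR). The groups overlapped, and all CPF3 males lay below the control median. The change was -0.15 against the injection controls alone and -0.14 with the form of the library name as a covariate. In Aro5 and BPA5 males the change of Nfe2l2 was -0.03 ± 0.105 and -0.06 ± 0.1, and with the form as a covariate 0.07 and 0.05. Their means were 14.6 and 14.5 CPM, beside 15.1 CPM in all control males and 16.4 CPM in feeding control males alone. Keap1 gave -0.02 ± 0.104 among Aro5 pups, 0.12 ± 0.0998 with BPA5 and 0.12 ± 0.1 with CPF3.

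Glutathione is made by glutamate-cysteine ligase, with Gclc as its catalytic and Gclm as its modifier subunit. Gclc had 40.7, 45.1 and 49.3 CPM (lowest, median, highest) in control males and 47.5, 50.3 and 60.6 CPM in Aro5 males. The change of 0.19 ± 0.0636 had the smallest unadjusted p of the 90 tests, 0.00553, with an adjusted p of 0.249. All 6 Aro5 males lay above the control median, but the groups overlapped. CPF3 males had 44.0, 50.1 and 53.8 CPM (0.13 ± 0.0611, adjusted p = 0.381 in edgeR), and BPA5 males 0.06 ± 0.0612. With the form of the library name as a covariate the changes of Gclc were 0.24 in Aro5, 0.18 in CPF3 and 0.11 in BPA5 males. Within the time window the change of Gclc in Aro5 males was 0.28 with an adjusted p of 0.0567 (edgeR). For Gclm the changes were 0.14 ± 0.128 (Aro5), 0.06 ± 0.123 (BPA5) and 0.08 ± 0.124 (CPF3). Leaving out 1 pup gave 0.04 to 0.23 for Aro5, with the lowest value without pup 120-2y, and the time window gave 0.38 with an adjusted p of 0.0983 (edgeR).

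Nqo1, a quinone reductase and a classical Nrf2 target, had 12.8, 15.5 and 17.6 CPM in control males. It had 10.3, 13.0 and 14.9 CPM in Aro5, 10.9, 13.4 and 15.3 CPM in BPA5 and 9.86, 12.6 and 14.9 CPM in CPF3 males. The highest male of each of the 3 groups lay below the control median, and each group overlapped with the controls. The log2 fold changes were -0.23 ± 0.0963, -0.18 ± 0.0921 and -0.23 ± 0.0926, and the adjusted p values of edgeR were 0.323, 0.549 and 0.334. The 3 comparisons share their controls. With the form of the library name as a covariate, which rests on the 1 male with both forms, the changes were -0.10, -0.05 and -0.09, and the cause of the shift was not tested. The summed level of choroid plexus markers, which went with Nqo1 across pups of a group (Pearson's r = 0.44), had means of 2217 to 2284 CPM in the high-dose and 2749 CPM in control males. Neuron markers went against Nqo1 (r = -0.55), with means of 897 to 925 CPM in the high-dose and 900 CPM in control males. The part of either in the values was not tested.

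Among the remaining members, Srxn1 had 5.38, 9.3 and 13.9 CPM in control males and 5.35, 7.06 and 11.3 CPM in CPF3 males (-0.31 ± 0.168, adjusted p = 0.447 in edgeR). With the form as a covariate the change was -0.12. Markers that went with Srxn1 across pups had lower means in CPF3 than in control males, 68.6 against 84.9 CPM for microglia and 1141 against 1253 CPM for astrocytes. Choroid plexus markers, which went against Srxn1 (Pearson's r = -0.42), also had a lower mean, 2217 against 2749 CPM. The part of these markers was not tested. Txnrd1 had narrow intervals throughout, with changes of 0.04 ± 0.0468, 0.07 ± 0.0448 and 0.07 ± 0.0448 for Aro5, BPA5 and CPF3. Changes of Sod1 ran from -0.12 to -0.04 and those of Sod2 from -0.12 to -0.05 in these groups. Hmox1, which opens the heme ring, is set apart by single pups and is described with them below.

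The low-dose males share the form of the library name with the control males. Srxn1 had 9.33, 9.86, 13.3 and 15 CPM in the 4 Aro0.5 males, a change of 0.38 ± 0.168 (adjusted p = 0.24 in edgeR). All 4 lay above the control median of 9.3 CPM, and 1 lay above the highest control. Without pup 98-8y the change was 0.22. At the high dose of the same chemical Srxn1 had the opposite sign, -0.20 ± 0.173, and the difference between doses was not tested. The doses also differ in the form of the library name. With the form as a covariate the high-dose value of Srxn1 was -0.01. In the Aro0.5 males Gclc gave -0.11 ± 0.0664 and Gclm -0.22 ± 0.115. Nfe2l2 had 14.6, 16.7, 17.2 and 19.6 CPM in the 4 BPA0.5 males (0.20 ± 0.0929, adjusted p = 0.566 in edgeR). With CONF males alone as controls this change was 0.08, and without pup 72-4y it was 0.13. Nqo1 gave 0.18 ± 0.0971 in BPA0.5 males, against -0.18 ± 0.0921 in BPA5 males, or -0.05 in BPA5 males with the form as a covariate. In CPF1 males the 10 changes lay between -0.23, for Gclm, and 0.09.

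In females the median change of the 10 genes was -0.05 for Aro5, -0.02 for BPA5 and -0.05 for CPF3, beside 0.00, 0.00 and -0.01 over all genes. Nqo1 had 8.09, 10.1, 10.6 and 11.9 CPM in the 4 BPA5 females and 10.0, 12.4 and 19.8 CPM as the lowest, median and highest value in 10 control females. The change was -0.34 ± 0.159 (adjusted p = 0.925 in edgeR), and all BPA5 females lay below the control median. Control female libraries had a mean of 14.7 CPM in form A and 11.3 CPM in form B, so that the size of the change depends on which controls are used. Choroid plexus markers summed to a mean of 1522 CPM in BPA5 females against 2617 CPM in control females, and neuron markers to 907 against 918 CPM. The part of either was not tested. Nfe2l2 gave -0.27 ± 0.141 in both BPA5 and CPF3 females. In CPF3 females Hmox1 had 7.68, 8.36, 8.48 and 11.0 CPM, a change of 0.24 ± 0.113 (adjusted p = 0.547 in edgeR) that was 0.11 without pup 43-3x and 0.11 within the time window. Sod2 had 46.4, 51.2, 51.6 and 52.7 CPM in these females and 52.9 to 60.8 CPM in control females. The groups of Sod2 did not overlap, as was the case for 0.184% of genes with a mean of at least 1 CPM, with a change of -0.14 ± 0.0619 (adjusted p = 0.533 in edgeR). It was -0.09 without pup 38-5x. Markers that went with Sod2 across pups also had lower means in CPF3 than in control females, with 1073 against 1184 CPM for astrocytes, 69.96 against 80.3 CPM for microglia and 447 against 522 CPM for oligodendrocytes, and their part was not tested.

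The study asked for differences between the sexes in the response. No member passed the test of the interaction between sex and treatment, for which 0.0984% of genes were called with Aro5, 0.0405% with BPA5 and 0.0463% with CPF3. With Aro5 1 member had an unadjusted p under 0.05, as did 8.92% of all genes, and with BPA5 and CPF3 there was none, beside 2.79% and 5.6% of all genes. DESeq2, for which no share of all genes is given, called 0 of 10 in each. The member was Gclc, which had 36.8, 40.5, 43.6, 44.1 and 44.3 CPM in Aro5 females, all below the lowest Aro5 male with 47.5 CPM, and 13.7% of genes with a mean of at least 1 CPM were without overlap between Aro5 males and females. Control females and males overlapped, with 40.8 to 49.2 and 40.7 to 49.3 CPM. The effect in females minus that in males was -0.27 ± 0.089 (adjusted p = 0.391 in edgeR). When only pups dissected in that time window were used, this difference was -0.39 with an adjusted p of 0.0337 (edgeR), and in that fit 3.49% of all genes were called. The window leaves out Aro5 males 108-1y and 117-4y, Aro5 female 117-6x and CONSC males 10-2y, 13-1y and 6-5y. It keeps littermates 120-1y and 120-2y among the Aro5 males, with 60.6 CPM of Gclc in 120-2y, and littermates 115-7x and 115-13x among the females. Gclm, the partner subunit, gave -0.31 ± 0.177 with all pups. Names of treated females could not be assigned to a form, and sex and form cannot be told apart in the treated pups.

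A list of 44 other genes of the pathway, grouped by role, gave a similar picture: 43 were in the table, 41 were tested and 0 were called in any of the 9 treatment comparisons (edgeR). DESeq2, again without a share of all genes beside it, also called 0 in each. Between 0 and 13 of them had an unadjusted p under 0.05, with 6, 5 and 4 in Aro5, BPA5 and CPF3 males. The 13 belonged to Aro0.5 males, where 18.5% of all genes tested had such a p. In these males 34 of 41 had a positive change, beside 50.5% of all genes, with a median of 0.11 beside 0.00. By list these were 10 of 10 genes of glutathione metabolism, 8 of 8 thioredoxins and peroxiredoxins, 5 of 5 genes of NADPH supply, 5 of 6 of heme and iron, 5 of 8 regulators and 1 of 4 other detoxification genes, the last with a median of -0.10. Thalamus markers had a mean of 659 CPM in these males and 440 CPM in control males, and their part was not tested. In high-dose males Bach1, a repressor that competes with Nrf2 for its elements, was among the pair of largest changes with 0.56 ± 0.201 in Aro5 and 0.38 ± 0.197 in CPF3 males. Their adjusted p values were 0.27 and 0.424 (edgeR). The small Maf gene Maff gave -0.37 ± 0.17 in Aro5 and -0.38 ± 0.164 in BPA5 males. Blvrb, a biliverdin reductase, gave 0.35 ± 0.144 in BPA5 males, and the glutathione transferase Gsta4 -0.32 ± 0.106 in CPF3 males. In Aro5 females the pair of largest changes was that of Slc40a1, the iron exporter, with 0.17 ± 0.115 and Blvrb with 0.17 ± 0.0862. In BPA5 females it was that of the extracellular superoxide dismutase Sod3 with -0.34 ± 0.22 and the transporter Abcc1 with 0.28 ± 0.154. In CPF3 females thioredoxin, Txn1, gave -0.28 ± 0.105 and the mitochondrial peroxiredoxin Prdx3 -0.26 ± 0.111.

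The 2 kinds of control did not differ in any member (edgeR and DESeq2, 0 of 10 each; 1 at an unadjusted p under 0.05 in males, beside 0.988% of all genes, and none in females, beside 4.29%), with 0.013% of genes called in males and 0% in females. The member was Nfe2l2. It had 15.9, 16.1, 16.2 and 17.4 CPM in CONF males and 11.9, 13.4, 14.4, 15.2 and 15.5 CPM in CONSC males. All CONF males lay above all CONSC males, and 0.512% of genes with a mean of at least 1 CPM were without overlap in either direction, with a difference of -0.23 ± 0.0958 (CONSC minus CONF, adjusted p = 1 in edgeR).

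Between control males and control females 1 of 10 members differed, in a comparison where 30.9% of all genes tested were called. A share of 1 in 10 is not above that background. Keap1 was higher in females by 0.36 ± 0.0498 on the log2 scale (adjusted p = 6.3e-06, edgeR). The 2 libraries of control male N2-2y differed by 0.54 in log2 CPM of Keap1. Median total counts were 14015105 in control males and 30238112 in control females. By the study's methods mean RNA integrity was also higher in females than in males, over all groups. The part of depth and RNA integrity was not tested. The 9 control males had 40.5, 46.4 and 52.6 CPM and the 10 control females 53.3, 57.4 and 60.9 CPM (lowest, median, highest). No male reached the lowest female, as was the case in either direction for 6.07% of genes with a mean of at least 1 CPM. By unadjusted p 2 members were under 0.05, beside 40.8% of all genes. The second was Sod1 with 0.21 ± 0.0801 and an adjusted p of 0.0553 (edgeR), at 95.1 to 146 CPM in males and 115 to 181 CPM in females. The median difference of the 10 genes was -0.07 (females minus males), beside -0.02 over all genes. Nfe2l2, Hmox1, Nqo1, Gclm and Srxn1 gave values from -0.18 to -0.11, and Gclc, Txnrd1 and Sod2 from -0.03 to 0.01. Among libraries of form A only, Nfe2l2 gave 0.04 and Nqo1 -0.03, and with the form as a covariate 0.00 and -0.07.

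The difference of Keap1 was also present among libraries given the same form here. Form was read from different features of male and female names, so a shared form need not mean shared handling. Among libraries of form A, 9 of males had 33.7 to 52.6 CPM and 5 of females 55.5 to 59.5 CPM, and among those of form B the 1 male had 49.0 CPM and 6 females had 53.3 to 60.9 CPM. Within form A the difference was 0.37 ± 0.086 (adjusted p = 0.00754, edgeR, 11.7% of genes called), and with the form as a covariate it was 0.35 (adjusted p = 0.000428). In the 18 litters that gave pups of both sexes, Keap1 was higher in the females in 18, with a mean log2 difference of 0.31 ± 0.248 (SD), whereas 3.89% of genes with a mean of at least 1 CPM were higher in females in every litter. These litters include control pups of the test above. Among the treated litters the values ran from 0.04 in BPA5 litter 79 and 0.05 in CPF3 litter 43 to 1.12 in Aro5 litter 120. Over all pups, males and females did not overlap with Aro5. They overlapped with BPA5 (males up to 56.5 CPM, females from 54.3 CPM) and with CPF3 (males up to 65.6 CPM, females from 46.5 CPM). Markers of endothelium (4 of 5 listed genes in the table) moved with Keap1. Their sum was 97.6 to 122 CPM in control females and 74.9 to 95.2 CPM in control males, and within groups it had a Pearson's r of 0.66 with Keap1 (Spearman's rho 0.60, 64 pups). Erythroid markers (5 of 7 in the table) had means of 1179 CPM in control females and 919 CPM in control males. Their part in the difference was not tested.

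**Figure D3:**
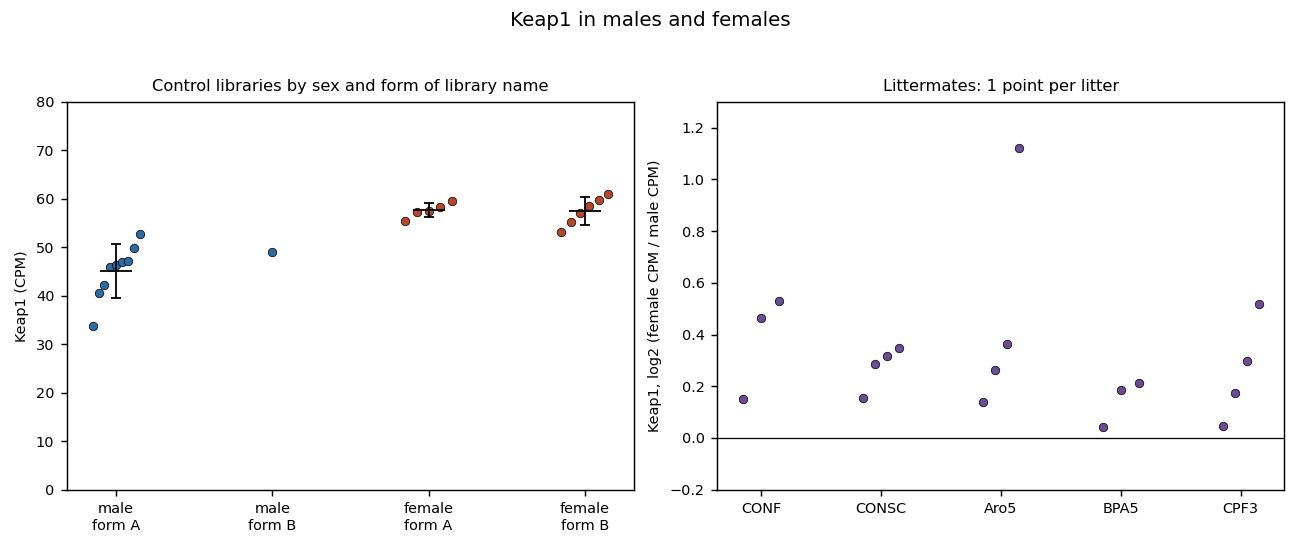
Keap1 in males and females: CPM in each control library by sex and form of the library name (left; mean and SD where there is more than 1 library), and log2 ratio of female to male CPM in litters with both sexes by treatment (right, 1 point per litter). Control libraries of females lie at 53.3 CPM or more, those of males at 52.6 CPM or less, and all 18 litters lie above 0.

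Of the 41 other pathway genes tested, 13 differed between control males and females, 7 higher and 6 lower in females. In this comparison 30.9% of all genes were called, so that the share is near the background and the values are given as a description. Those from the list of Nrf2 regulators went in both directions. The small Maf gene Mafk (0.32 ± 0.0799) and Sqstm1, whose protein p62 binds Keap1 (0.15 ± 0.0492), were higher in females. Cul3 (-0.19 ± 0.0452) and Rbx1 (-0.34 ± 0.0517), subunits of the ligase that Keap1 serves, were lower. Among enzymes that use glutathione, the peroxidases Gpx4 (0.46 ± 0.0736) and Gpx1 (0.26 ± 0.0962) were higher and the reductase Gsr (-0.12 ± 0.0425) was lower in females. Txn1 (-0.29 ± 0.0898), Prdx1 (-0.20 ± 0.0702) and Prdx3 (-0.37 ± 0.0795) were lower, and they were all the called members of their list of 8. Transketolase, Tkt, of the pentose phosphate pathway (0.43 ± 0.0653), Blvrb (0.64 ± 0.0716) and the ferritin light chain Ftl1 (0.52 ± 0.0818) were higher. Blvrb is abundant in red blood cells, whose markers were higher in the mean of control females, as given above, and the part of blood was not tested.

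Hmox1, which is induced by heme and by many kinds of stress, had values between 5.24 and 11.0 CPM in 62 of the 64 pups, with a median of 7.69 CPM. The other two were CONF male N4-7y with 17.3 CPM (213 counts) and CPF3 male 36-3y with 21.7 CPM (420 counts). The remaining CONF males had 6.58 to 7.85 CPM and the remaining CPF3 males 6.65 to 7.71 CPM. Both pups were also the first and second of 41 males for Sod1, with 146.5 CPM in N4-7y and 145.7 CPM in 36-3y. For Keap1 they ranked 6th with 52.6 CPM and 1st with 65.6 CPM. For Nfe2l2, Nqo1, Txnrd1 and Sod2 pup N4-7y ranked 14th, 8th, 12th and 22nd, and pup 36-3y 40th, 35th, 3rd and 40th. For the glutathione and sulfiredoxin genes they lay within the range of the other males, with ranks from 21st to 35th in Gclc, Gclm and Srxn1. Pup 36-3y had the lowest sum of astrocyte markers of the CPF3 males, 844 CPM against 945 to 1376 CPM, and the highest sum of endothelial markers, 116 CPM against 80.8 to 99.98 CPM. Its sum of oligodendrocyte markers was also the lowest of these males, 348 CPM against 362 to 585 CPM. Pup N4-7y likewise had the lowest astrocyte sum of the CONF males, 1030 CPM against 1189 to 1330 CPM, and the highest endothelial sum, 93.7 CPM against 83.4 to 92.6 CPM. It also had the highest sums of choroid plexus markers, 3591 CPM against 2157 to 2586 CPM, and of erythroid markers, 1294 CPM against 896 to 983 CPM, among CONF males. Its sum of neuron markers was the lowest of these males, 874 CPM against 900 to 983 CPM. The part of these markers was not tested. The mean change of Hmox1 in CPF3 males depended on these pups: it was 0.13 ± 0.219 with all pups, 0.32 without N4-7y, -0.25 without 36-3y and -0.05 ± 0.0988 without both. In Aro5 males it was -0.29 ± 0.231 with all pups and -0.09 without N4-7y, and in BPA5 males -0.02 ± 0.219 and 0.17.

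Pups of 1 group differed among themselves in a pattern shared by some members. After subtraction of the group mean on the log2 scale, Srxn1 and Sod2 went together with a Pearson's r of 0.80 and a Spearman's rho of 0.81 over 64 pups, and r was 0.80 without the 2 pups farthest from the median of Srxn1. Txnrd1, although it belongs to the same thioredoxin system as Srxn1, went against both, with r = -0.52 for Srxn1 and r = -0.68 for Sod2. Gclc and Gclm, whose proteins form 1 enzyme, had r = 0.36. Keap1 went against Gclc (r = -0.58) and Gclm (r = -0.47), and with Hmox1 (r = 0.52; 0.41 without the 2 pups farthest for Keap1). Nqo1 and Sod1 had r = 0.52. Nfe2l2 had r between -0.36, for Keap1, and 0.34, for Nqo1, with the other members. Correlations among the target genes thus had both signs. These points share libraries, their depth and their tissue composition, and some pups share a litter. Sums of astrocyte markers had r = 0.63 with Sod2, 0.56 with Srxn1 and -0.52 with Txnrd1, and those of microglia had r = 0.64 with Srxn1 and 0.54 with Sod2. Endothelial markers had r = -0.59 with Gclc.

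**Figure D4:**
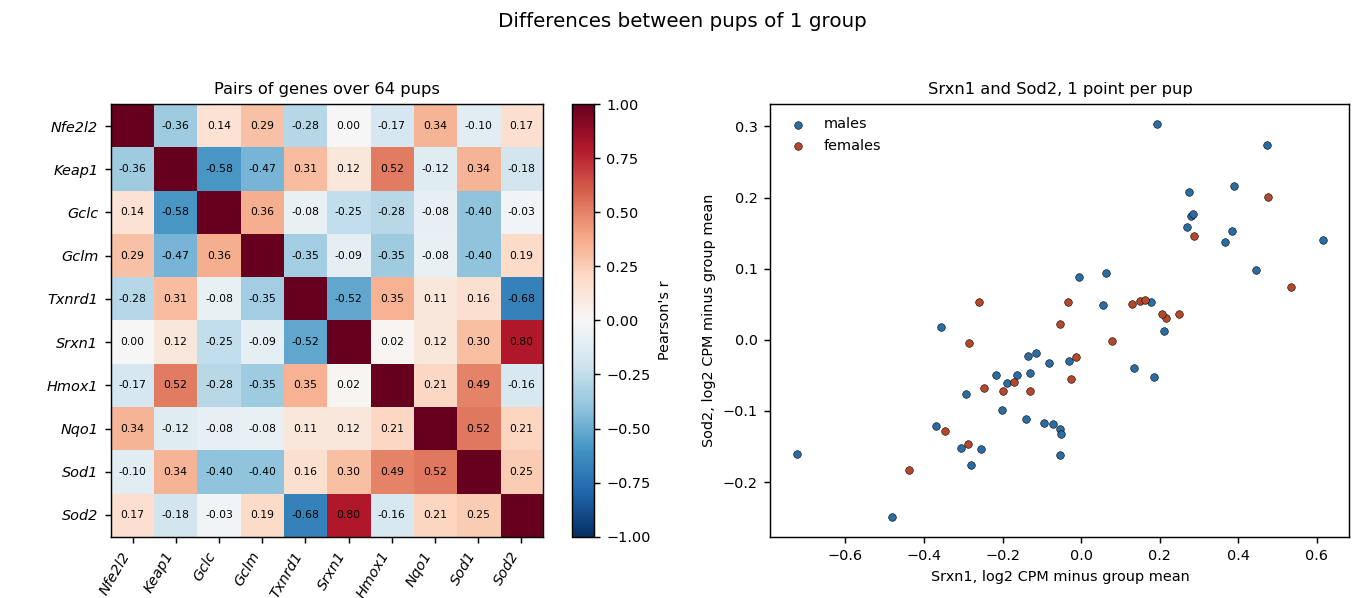
Differences between pups of the same group: Pearson's r of log2 CPM after subtraction of the group mean for all pairs of the 10 genes over 64 pups (left, colour scale from -1 to 1), and the values of Srxn1 and Sod2 in each pup (right, log2 units). Srxn1 and Sod2 go together (r = 0.80), and Txnrd1 goes against both.

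Among 11821 genes with a mean of at least 5 CPM, those most like Keap1 in this respect were Cers1 and Gdf1 (r = 0.92 each) and Egln2 (r = 0.92). The values of Cers1 and Gdf1 were the same, and as the genes overlap they may share reads. The genes most like Srxn1 were Dusp3 (r = 0.86), Lynx1 (0.86) and Tuba4a (0.84). Those most like Sod1 were Ngfrap1 (0.87), Ndufa6 (0.81) and Bex2 (0.81), and those most like Sod2 were Atp1b1 (0.81), Ttc19 (0.80) and Srxn1 itself. Sod2 was the only member whose 3 closest genes included another member. The closest gene was Rev1 for Gclc (0.81), Hipk1 for Gclm (0.80), Tspan3 for Nqo1 (0.81), Ppp1r14b for Txnrd1 (0.76), Ppp1r3b for Nfe2l2 (0.72) and Txndc15 for Hmox1 (0.68). These values describe likeness over the same libraries.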

How the data were processed

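Libraries of dorsal hippocampus were made with a stranded mRNA kit. By the study's methods the authors used STAR for alignment (Rnor_6.0) and featureCounts for counting, and the deposited values are raw counts per gene. Versions and the handling of multiply matching reads are not given in the sources used here. Where a pup had 2 libraries, these were added together, and CPM refer to its own total. Pups had 10644138 to 86206550 counts, and counting error was below the spread between pups for all 10 genes at their median count. Treated groups were tested against both controls of their sex with edgeR 4.0.16 in R 4.3.3 (TMM, filterByExpr, quasi-likelihood; p values adjusted by Benjamini and Hochberg across all genes tested; threshold 0.05). Males at the high dose, males at the low dose, females, the control routes, the control sexes, and sex by treatment were separate fits. Alternatives included DESeq2 1.42.0, limma 3.58.1 for the litter block, other filters, the time window and leaving out each pup. The code was tested on simulated counts. Litters pair males and females of a dam; the correlation within litters was -0.0061 in the sex by treatment fit and -0.17 among controls. Where pups share a litter, p values partly measure spread within it. Likeness used log2 CPM with a prior count of 2. Members and lists were chosen with earlier results of these data known. The members are described in all comparisons; a pathway gene is named if it passed the threshold or had 1 of the 2 largest changes of a high-dose comparison. Python 3.11.15 was used for summaries and plots.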

Additional observations from a re-analysis of the deposited data

Results flagged for a closer look

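In 8 of the 130 combinations of gene and group with 4 to 7 pups, 1 pup stood apart by Dixon's test, and chance flags about 1 in 20 such groups. High values were those of Nfe2l2 in CONSC female 9-1x (19.4 CPM; other pups 11.7 to 13.3 CPM), which was also high in Sod1 (180.5 CPM; others 132 to 142 CPM). Keap1 was high in Aro5 female 120-3x (74.3 CPM; others 56.3 to 59.6 CPM), and Gclc in Aro5 male 120-2y of the same litter (60.6 CPM; others 47.5 to 51.9 CPM). Hmox1 was high in CONF male N4-7y (17.3 CPM) and in CPF3 male 36-3y (21.7 CPM), and Sod2 in CONF male N3-4y (71.7 CPM; others 55.7 to 58.2 CPM). The 1 low value was that of Keap1 in CPF3 female 43-3x (46.5 CPM; others 57.1 to 57.5 CPM). The causes were not tested.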

How the results depend on the processing

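Numbers of members called stayed within 1.5 times their main value in 363 of 368 recomputed counts. The main value was 0 in every comparison but that of control males and females, so that nearly all of these counts set 0 beside 0. With only pups in the time window, 1 member in place of 0 was called for the interaction of sex and Aro5, Gclc, with an adjusted p of 0.0337, while its other settings gave 0.347 to 0.705. The window leaves out 11 of the 66 libraries, among them Aro5 males 108-1y and 117-4y, and keeps littermates 120-1y and 120-2y. The cause was not tested. Between control males and females 2 members in place of 1 were called, Sod1 beside Keap1, without a filter beyond 1 count (adjusted p of Sod1 0.0417), with at least 10 counts in every pup (0.0479), with the first library only (0.0493) and with the name form as covariate (0.0373). Keap1 was called under all 11 settings of that comparison, with differences of 0.33 to 0.39. With the litter as replicate block it was 0.37 (adjusted p = 1.05e-05, limma), and the block changed no call of a member in any of the 4 comparisons it could be fitted for. In the treatment comparisons no setting called a member, and the lowest adjusted p was 0.0567 (edgeR), for Gclc in Aro5 males within the time window. The shares of all genes called in these settings are not given here and need not be those of the main fits. For the interaction of sex and Aro5 the share was 3.49% within the window and 0.0984% with all pups. Leaving out each pup in turn called 0 members in any treatment comparison and between control routes; it was not run for the interactions or the control sexes. Of 3680 recomputed changes of single members, 48 moved by over 1 SE without a call on either side, many with the name form as covariate or the time window. Depth limits Srxn1 and Hmox1 most. The restriction to name form A and the removal of both pups with high Hmox1 were chosen after the data were seen.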
